A study of Mus musculus with 8 samples.

Results

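The choroid plexus and the ciliated ependyma line the ventricles of the brain, and 32 genes that mark them were followed in brain messenger RNA of db/db mice. The 32 were taken by gene symbol from the 17983 symbols of the deposited tables, 16 as choroid plexus genes and 16 as genes of ciliated ependymal cells. The 8 libraries came from male db/db mice, which carry a leptin receptor mutation and become obese and diabetic. Of these, 4 were from mice on a ketogenic diet, which replaces most carbohydrate with fat, and 4 from mice on normal diet, called control. The diets ran from 9 weeks of age until whole brains were taken at 6 months. All mice had the db/db genotype, so no group without diabetes was compared, and the labels do not say whether a library pooled animals. A symbol's count in a whole brain cannot tell fewer cells of a type from less RNA per cell. P-values measure the spread between these 8 libraries.

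The choroid plexus is a sheet of cuboidal epithelium over leaky capillaries that secretes most of the cerebrospinal fluid. It moves sodium, chloride, bicarbonate and water into the ventricle, makes carrier and signalling proteins such as transthyretin, and is sealed by tight junctions that form the barrier between blood and cerebrospinal fluid. Ependymal cells border the ventricles next to it and carry tufts of motile cilia, whose beat is driven by dynein arms on a ring of microtubules around a central pair. The transcription factor FOXJ1, acting with factors of the RFX family, switches on the genes of motile cilia.

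Total counts ran from 34450860 to 40233361 per library. All 32 genes had counts in every library, from a lowest of 9 (Spag17) to a highest of 49063 (Ttr), and all 32 passed edgeR's filter on low counts. Levels are CPM, counts brought to a common library size by the trimmed mean of M values, or deposited FPKM where genes of different length are compared. Diet was compared with edgeR's quasi-likelihood test over all 14895 tested genes with Benjamini-Hochberg adjustment, and a gene was called at an adjusted p under 0.05. Of all tested genes 6.52% were called, 3.30% higher and 3.22% lower in ketogenic libraries.

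The choroid plexus genes spanned a wide range of levels. Per length, Ttr stood first at 630 ± 161 FPKM in control and 867 ± 92.6 FPKM in ketogenic libraries (SD, n = 4 each), and Enpp2 second at 133 ± 23.9 and 155 ± 15.5 FPKM. Kl, Clic6 and Ecrg4 followed at control means of 6.12 to 7.67 FPKM, and their control ranges overlapped. The other 11 genes lay between 0.695 FPKM for Trpv4 and 4.70 FPKM for Sostdc1. Ttr alone held 0.0532% to 0.103% of all counts in control libraries and 0.0994% to 0.127% in ketogenic libraries.

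The largest difference within a group was carried by control replicate 2, which held the lowest control level of 15 of the 16 choroid plexus genes. Tmem72 was the exception, lowest in control replicate 4. Over all tested genes control replicate 2 was the lowest control library for 3122 of 14895. The median choroid plexus gene was 0.57 lower on the log2 scale in this library than in the mean of the other 3 control libraries, while the median of all tested genes was 0.0043 higher. Its mean log2 CPM over the 16 genes was 3.23, against 3.75 to 3.85 in the other controls and 3.79 to 4.12 in the ketogenic libraries. Meningeal fibroblast and endothelial markers did not share this low value: their medians in control replicate 2 were 0.29 and 0.16 above the other controls in log2, and none of those 27 genes was lowest there. Tanycyte markers had a median of -0.11, and 5 of 9 were lowest in this library. The ciliated genes had a median of -0.07 in the same comparison, with 4 of 16 lowest. What set this library apart was not tested.

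**Figure D1:**
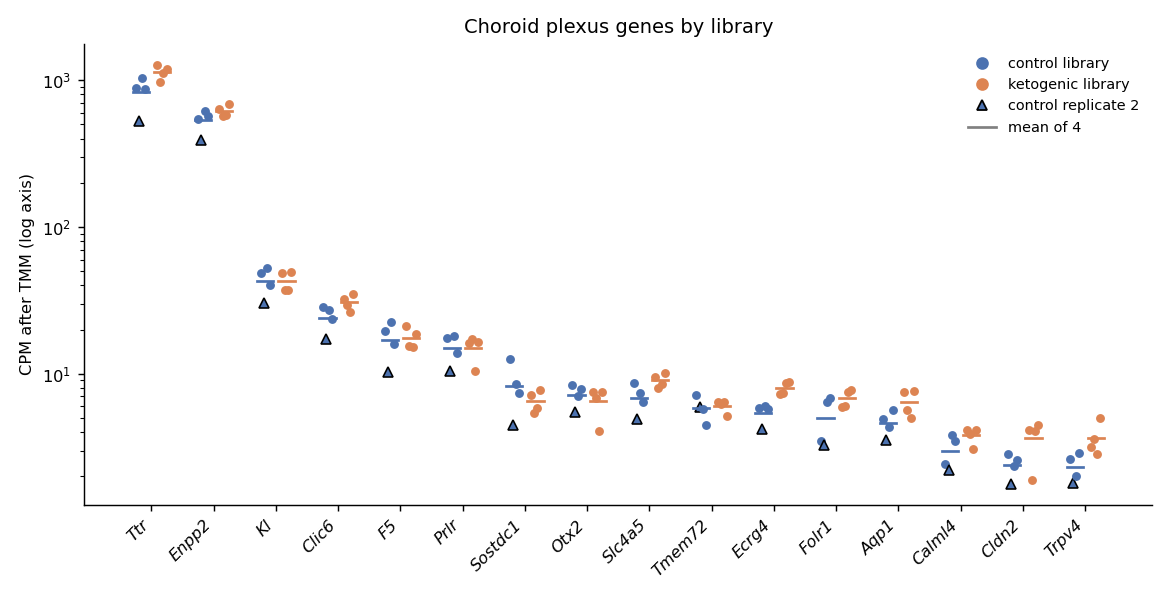
CPM (log axis) of the 16 choroid plexus genes in each of the 4 control and 4 ketogenic libraries, with bars at the group means and genes ordered by control mean. Control replicate 2, drawn as a triangle, is the lowest control library for 15 of the 16 genes.

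With the ketogenic diet, the median log2 change of the choroid plexus genes was 0.35, beside -0.0029 for all tested genes. Of the 16 changes 13 were positive, where 49.3% of all tested genes had a positive change. Only Ecrg4 passed the threshold, so 1 gene rose, 0 fell and 15 did not pass, beside 3.30% of all tested genes higher and 3.22% lower. At an unadjusted p under 0.05 there were 7 higher and 0 lower, where 12.1% of all tested genes were higher and 12.5% lower. The DESeq2 Wald test called 3 higher (Clic6, Ecrg4 and Trpv4) and 0 lower, where it called 6.97% higher and 6.76% lower of the 12872 genes to which it gave an adjusted p. Limma-voom called Ecrg4 alone, with 3.03% of all tested genes higher and 2.81% lower. Without control replicate 2 the median was 0.22, 11 changes were positive and no gene passed in edgeR's test. The split of 7 and 0 also depended on single libraries. Without control replicate 2, Ttr, Clic6, Ecrg4 and Trpv4 still met the unadjusted threshold as higher, while Aqp1, Slc4a5 and Cldn2 did not. Sostdc1, with a log2 change of -0.53 in that fit, then met it as lower. Without ketogenic replicate 1 the same genes met it as higher, and without ketogenic replicate 4 Ttr, Clic6 and Ecrg4 did. Without control replicate 3, Folr1, Enpp2 and Calml4 met it too, while Cldn2 did not. At the adjusted threshold no gene passed without control replicate 1 or ketogenic replicate 2, 3 or 4 either. With control replicate 2 and ketogenic replicate 3 both left out, the median was 0.26 and again no gene passed.

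Among secreted products, Ttr encodes transthyretin, the carrier of thyroid hormone and retinol-binding protein in cerebrospinal fluid. It was at 885, 529.9, 1040.5 and 876 CPM in control replicates 1 to 4 and at 1270.1, 978, 1126 and 1191 CPM in ketogenic replicates 1 to 4. The groups overlapped only through control replicate 3, which lay above ketogenic replicate 2. The log2 change was 0.45 ± 0.14 (SE), with an edgeR adjusted p of 0.0621, and 0.0411 without the filter on low counts. The adjusted p was 0.115 in the DESeq2 Wald test, 0.0548 in limma-voom and 0.195 with limma on log2(FPKM + 1). Ttr passed in 3 of the 20 alternative settings. Its value moved with single control libraries: without control replicate 2 the log2 change was 0.29 (edgeR adjusted p = 0.0863), and without control replicate 3 it was 0.58 (edgeR adjusted p = 0.0449).

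Ecrg4 encodes augurin, a precursor of secreted peptides that choroid plexus epithelium makes in quantity. In GENCODE M21 the gene lies on chromosome 1 at 43730602 to 43742578 (GRCm38, plus strand, protein coding, named 1500015O10Rik there). Counts were deposited per gene symbol, not per transcript. It was at 5.86, 4.17, 5.99 and 5.76 CPM in the control libraries and at 7.30, 7.36, 8.63 and 8.77 CPM in the ketogenic libraries. All 4 ketogenic values lay above all 4 control values, and 7.22% of all tested genes did the same. The log2 change was 0.56 ± 0.14 (SE), 1.47-fold (edgeR adjusted p = 0.0349). The call held without control replicate 4 or ketogenic replicate 1 and was lost when any other library was left out, with adjusted p of 0.0548 to 0.0948. It was also lost after removal of a trend on GC content and gene length, where the log2 change was 0.47 (adjusted p = 0.0894) and calls over all genes fell from 971 to 288. Ecrg4 overlaps an antisense gene, Gm29155, and the use of strand in counting is not known here.

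Other secreted or shed proteins did not pass. Enpp2, whose product autotaxin makes lysophosphatidic acid and which oligodendrocytes also express, was at 531 ± 97.0 CPM in controls and 617 ± 54.3 CPM with ketogenic diet. Its log2 change was 0.22 ± 0.10 (SE, edgeR adjusted p = 0.209), and 0.10 without control replicate 2. F5, coagulation factor V, was at 10.3 to 22.4 CPM in controls and 15.3 to 21.02 CPM with ketogenic diet. Sostdc1, an antagonist of BMP and Wnt signalling, had the most negative change of the 16 genes, -0.33 ± 0.23. It was at 12.5, 4.51, 8.57 and 7.45 CPM in the control libraries and at 7.20, 5.43, 5.86 and 7.77 CPM in the ketogenic libraries. The highest and the lowest Sostdc1 values were thus both in controls, and without control replicate 1 the log2 change was -0.06. Kl encodes klotho, a co-receptor for FGF23 that is also shed into the fluid, and was at 43.0 ± 9.78 CPM in controls and 43.0 ± 6.56 CPM with ketogenic diet. The log2 change of Kl was 0.00 ± 0.14, and it took either sign across settings.

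Transporters, channels and receptors of the epithelium had mostly positive changes, none past the threshold. Aqp1, the water channel of the apical membrane, was at 3.56 to 5.63 CPM in controls and 4.98 to 7.67 CPM with ketogenic diet, with a change of 0.49 ± 0.18 in log2 (SE, edgeR adjusted p = 0.107). Slc4a5, a sodium bicarbonate cotransporter, was at 4.92 to 8.71 and 8.05 to 10.2 CPM, a change of 0.40 ± 0.16 (adjusted p = 0.129). For both genes the highest control library lay above the lowest ketogenic one. Clic6, an intracellular chloride channel protein, was at 28.3, 17.3, 27.3 and 23.6 CPM in controls and 32.3, 29.4, 26.5 and 35.2 CPM with ketogenic diet, a change of 0.35 ± 0.13 (adjusted p = 0.0981). Only ketogenic replicate 3 lay within the control range of Clic6.

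Trpv4, a calcium-permeable channel that responds to osmolarity, had the largest positive change of the 16, 0.65 ± 0.23 (SE, edgeR adjusted p = 0.0944). Its highest value, 5.03 CPM in ketogenic replicate 4, compared with 2.85 to 3.60 CPM in the other ketogenic libraries and 1.81 to 2.87 CPM in control. Folr1, the receptor that carries folate across the epithelium, was at 3.50, 3.28, 6.47 and 6.83 CPM in controls and 5.98, 6.07, 7.54 and 7.69 CPM with ketogenic diet. The control values of Folr1 thus fell into a low and a high pair, and its gene overlaps Anapc15 on the opposite strand, so its reads are uncertain without a stated use of strand. Prlr, the prolactin receptor, was at 14.98 ± 3.58 CPM in controls and 15.1 ± 3.10 CPM with ketogenic diet. Ketogenic replicate 3 held 10.5 CPM of Prlr, close to control replicate 2 at 10.4 CPM, and the other 6 libraries lay at 13.9 to 18.2 CPM.

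Cldn2, the claudin that gives the choroid plexus its cation-permeable tight junctions, was at 2.82, 1.78, 2.35 and 2.58 CPM in controls and 4.12, 1.88, 4.08 and 4.49 CPM with ketogenic diet. Ketogenic replicates 1, 3 and 4 were above every control, and ketogenic replicate 2 was within the control range. The log2 change was 0.61 ± 0.26 (SE, edgeR adjusted p = 0.160). Otx2, the homeodomain factor that maintains choroid plexus identity, had a change of -0.15 ± 0.19, with 4.10 CPM in ketogenic replicate 3 and 6.85 to 7.54 CPM in the other ketogenic libraries. Calml4, a calmodulin-like protein gene, went from 2.995 ± 0.798 to 3.81 ± 0.500 CPM, and Tmem72, a membrane protein gene, from 5.83 ± 1.12 to 6.04 ± 0.610 CPM, with overlapping groups in both.

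**Figure D2:**
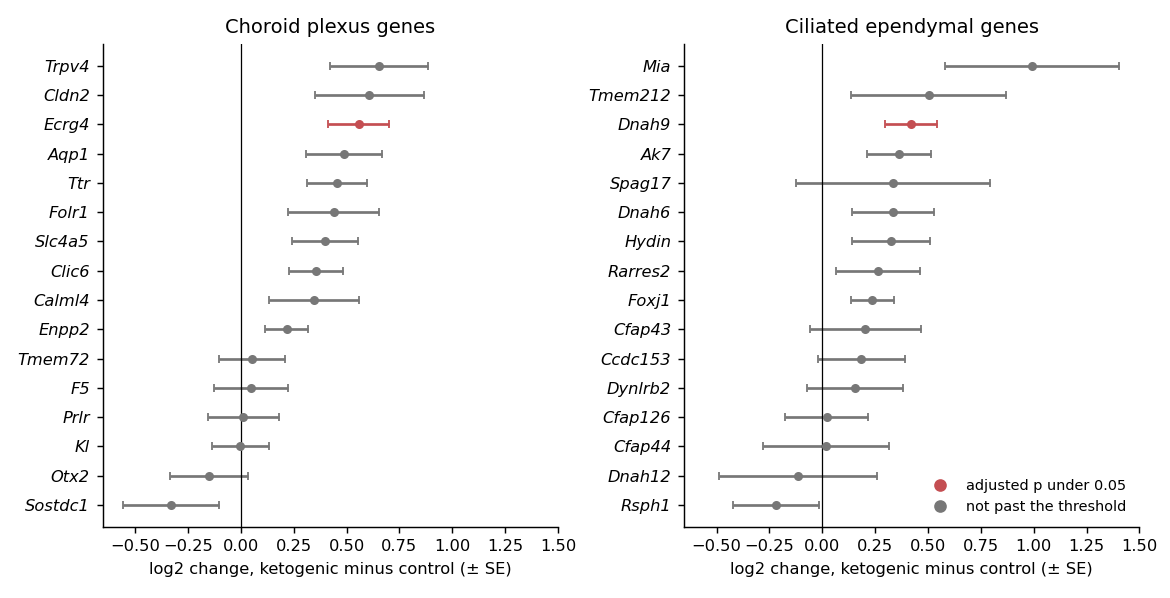
Log2 change, ketogenic minus control, of the 16 choroid plexus genes (left) and 16 ciliated ependymal genes (right) from edgeR's fit, with bars of 1 SE and genes ordered by change. Red marks the genes called at an adjusted p under 0.05, Ecrg4 at 0.56 on the left and Dnah9 at 0.42 on the right.

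To compare the genes with each other, each gene's log2 CPM was set against the mean of the other 15 in the same library. On this scale Kl went from a mean of 1.85 with normal diet to 1.57 with ketogenic diet. Otx2 went from between -1.09 and -0.80 to between -1.85 and -1.09, so that its nearest values almost met, and Sostdc1 from between -1.11 and -0.20 to between -1.45 and -1.23. These 3 of 16 genes (18.8%) were lower in all 4 ketogenic than in all 4 control libraries, and 0 were higher. The same measure against the choroid plexus mean was lower for 13.9% and higher for 0.128% of all tested genes, so the share of 3 in 16 lay near that of all tested genes and says nothing particular of these genes. The mean of the other choroid plexus genes was itself higher with ketogenic diet, so that a gene with equal CPM in both groups, such as Kl, is lower on this scale. Ttr, by contrast, had a mean 0.23 higher on this scale in ketogenic libraries, with overlap.

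A wider list of 42 other choroid plexus genes had a median log2 change of 0.09, with 27 positive and 15 negative. None passed in edgeR's test, beside 6.52% of all tested genes. At an unadjusted p under 0.05, 6 were higher and 2 lower, beside 12.1% and 12.5% of all tested genes. Many of these genes are also active in neurons, glia or vessels. The smallest p-values belonged to Slc4a2, a chloride bicarbonate exchanger, and Ezr, which links membrane to actin. Slc4a2 went from 30.8 ± 3.75 to 37.2 ± 2.71 CPM (edgeR adjusted p = 0.0727), and Ezr from 102 ± 11.0 to 88.6 ± 3.33 CPM (adjusted p = 0.0948). Control replicate 2 was the lowest control library for 17 of the 42.

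The ciliated ependymal genes lay at lower levels. Per length, Rarres2 was highest at 7.08 ± 1.60 FPKM in control and 8.57 ± 2.57 FPKM in ketogenic libraries, followed in control by Rsph1, Foxj1 and Dynlrb2 at 4.12 to 5.74 FPKM. The dynein heavy chains, Hydin and Spag17 were all under 0.5 FPKM in control. As a group the 16 genes summed to 59.7 to 67.3 CPM in controls and 60.7 to 87.2 CPM with ketogenic diet.

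Here ketogenic replicates 2 and 3 stood at opposite ends. Ketogenic replicate 3 was the lowest ketogenic library for 10 of 16 genes and ketogenic replicate 2 the highest for 10 of 16, where over all tested genes these shares were 26.6% and 22.2%. Against the other ketogenic libraries the median gene was 0.50 lower in replicate 3 and 0.33 higher in replicate 2, in log2. A list of 85 other tested motile cilia genes had the same 2 libraries at its ends, with 39 lowest in replicate 3 and 44 highest in replicate 2. Ketogenic replicate 3 also lay apart on the first principal component of all genes, at 34.4 where the other ketogenic libraries lay between 2.90 and 11.2. Its microglia markers were 0.29 higher and its meningeal markers 0.28 lower at the median than in the other ketogenic libraries. The part of these differences in the ciliated genes was not tested.

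**Figure D3:**
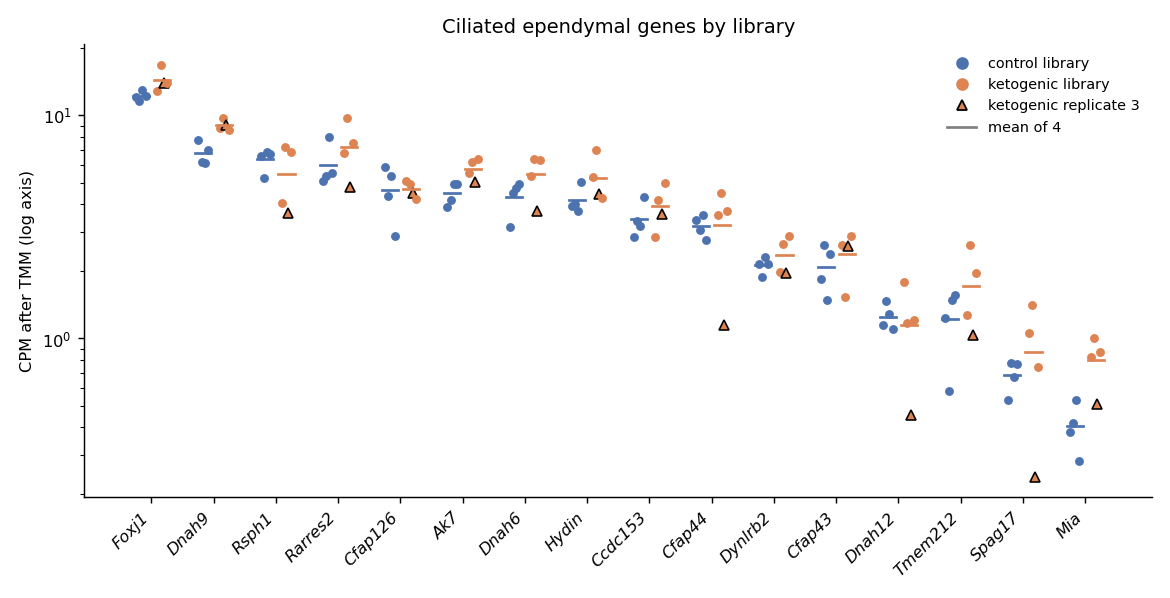
CPM (log axis) of the 16 ciliated ependymal genes in each library, with bars at the group means and genes ordered by control mean. Ketogenic replicate 3, drawn as a triangle, is the lowest ketogenic library for 10 of the 16 genes and lies far below the rest for Cfap44, Dnah12 and Spag17.

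With the ketogenic diet the ciliated genes had a median log2 change of 0.25, beside -0.0029 for all tested genes. Of the 16 changes 14 were positive, where 49.3% of all tested genes had a positive change. In edgeR's test 1 rose, Dnah9, 0 fell and 15 did not pass, beside 3.30% of all tested genes higher and 3.22% lower. At an unadjusted p under 0.05, 4 were higher (Foxj1, Mia, Ak7 and Dnah9) and 0 lower, beside 12.1% and 12.5% of all tested genes. The DESeq2 Wald test also called Dnah9 alone, with no adjusted p for Tmem212, Mia, Dnah12 and Spag17, and limma-voom called 0. The ketogenic and control values did not overlap for Dnah9 and Ak7, both higher, and for no gene in the other direction, where the shares of all tested genes were 7.22% and 6.51%. Without ketogenic replicate 3 the median was 0.35, and without ketogenic replicate 2 it was 0.15, and no gene passed in either case.

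Foxj1, the master regulator of motile cilia, was at 12.1, 11.7, 13.02 and 12.3 CPM in controls and 12.8, 16.9, 14.0 and 14.0 CPM with ketogenic diet. Only ketogenic replicate 1 lay within the control range, and the largest value was again in ketogenic replicate 2. The log2 change was 0.24 ± 0.10 (SE, edgeR adjusted p = 0.166).

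The axonemal motors include the dynein heavy chains. Dnah9, a heavy chain of the outer arm, lies on chromosome 11 at 65831282 to 66168551 (GRCm38, minus strand, GENCODE M21, protein coding). It was at 7.77, 6.18, 6.13 and 7.01 CPM in controls and 8.78, 9.78, 9.06 and 8.62 CPM with ketogenic diet. The log2 change was 0.42 ± 0.12 (SE), 1.34-fold, with an edgeR adjusted p of 0.0493. The call held without control replicate 4 and was lost without any other single library (adjusted p of 0.0708 to 0.136). It was also lost without the count filter (0.0538), in limma-voom (0.0523) and after the trend on GC and length was removed (0.0673), with log2 changes of 0.42, 0.43 and 0.43. Ketogenic replicate 3, low for most of the list, was not low for Dnah9. Dnah9 overlaps Gm12296 on the opposite strand.

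Dnah6, an inner arm heavy chain, was at 3.15 to 4.91 CPM in controls and 3.73 to 6.41 CPM with ketogenic diet, 0.33 ± 0.19 higher in log2 (SE, edgeR adjusted p = 0.309). Dnah12, another inner arm heavy chain, was at 1.15, 1.47, 1.29 and 1.10 CPM in controls and 1.79, 1.17, 0.453 and 1.21 CPM with ketogenic diet. Its change was -0.12 ± 0.37, and 0.15 without ketogenic replicate 3. Dynlrb2, a light chain, went from 2.13 ± 0.178 to 2.37 ± 0.457 CPM.

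The structural axoneme genes among the 16 did not pass. Spag17, of the central pair, was at 0.530, 0.779, 0.672 and 0.768 CPM in controls and 1.06, 1.42, 0.240 and 0.744 CPM with ketogenic diet, and it overlaps Wdr3. Hydin, also of the central pair, was at 3.94, 4.01, 3.72 and 5.04 CPM in controls and 5.28, 6.995, 4.42 and 4.26 CPM with ketogenic diet, 0.33 ± 0.18 higher in log2 (SE, edgeR adjusted p = 0.292). Both genes had their highest value in ketogenic replicate 2. Rsph1, of the radial spoke head, had the most negative change of the 16, -0.22 ± 0.20. Its ketogenic values fell into a low pair, 4.04 and 3.65 CPM in replicates 1 and 3, and a high pair, 7.24 and 6.85 CPM in replicates 2 and 4, against 5.26 to 6.86 CPM in control.

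Cfap43 and Cfap44 encode partners in the complex that tethers inner dynein arms. Cfap44 was at 2.76 to 3.58 CPM in controls and at 3.57, 4.50, 1.15 and 3.74 CPM with ketogenic diet, so that only ketogenic replicate 3 lay below the control range. Its log2 change was 0.02 ± 0.30 with all libraries and 0.30 without ketogenic replicate 3. Cfap43 was at 1.48 to 2.61 and 1.54 to 2.87 CPM, and it overlaps Gsto1, Gsto2 and Itprip, which makes its reads uncertain. Cfap126, which helps position basal bodies, was at 4.62 ± 1.31 CPM in controls and 4.68 ± 0.412 CPM with ketogenic diet. Ak7, an adenylate kinase of the cilium, was at 3.88, 4.17, 4.93 and 4.91 CPM in controls and 5.51, 6.16, 5.01 and 6.36 CPM with ketogenic diet. The Ak7 groups did not overlap, and its log2 change of 0.36 ± 0.15 did not pass (edgeR adjusted p = 0.150).

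Of the remaining ependymal genes, Mia encodes a small secreted protein and had the largest change of all 32, 0.99 ± 0.41 (SE, edgeR adjusted p = 0.148). It rested on 11 to 41 counts per library, with 0.382, 0.417, 0.532 and 0.282 CPM in controls and 0.828, 1.003, 0.506 and 0.872 CPM with ketogenic diet. Only ketogenic replicate 3 fell within the control range of Mia. Its gene overlaps Gm21983, a protein-coding gene on the same strand that is not among the deposited symbols, so its reads are uncertain. Rarres2, which encodes the secreted chemoattractant chemerin, was at 5.09 to 8.04 CPM in controls and 4.77 to 9.71 CPM with ketogenic diet, and it overlaps Lrrc61 on the opposite strand. Tmem212, a membrane protein gene, was at 0.584 to 1.56 and 1.04 to 2.62 CPM, and Ccdc153, a coiled-coil protein gene, at 2.85 to 4.32 and 2.85 to 5.002 CPM.

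The promoters of the ciliated genes were searched for an arm of the X-box, the sequence that RFX factors bind. The search took GTTGCCA or GTTGCTA on either strand of the 300 bases from 250 before to 50 after each RefSeq start (GRCm38.p6). It was chosen, like the motifs compared with it, after member values and promoters had been seen. Promoters were matched for 13 of 16 ciliated genes, of which 5 held the sequence (38.5%), and for 11 of 16 choroid plexus genes, of which 2 did (18.2%). Of all 27025 genes with a promoter, 8.77% held it, and of all 32851 promoters 7.63%. For each of 5 genes drawn from both lists, which are not all the genes with a match, 1 match that lies before the start is printed. It is given 5′ to 3′ on the gene's strand, with 11 bases on each side and the matched bases in capitals. The printed lines show which bases matched and what stands next to them, which in Cfap44 is a further match on the opposite strand. In Dynlrb2 the bases gttgcc stand directly before the match and were not themselves a match of the search.
Cfap44, chr16:44394761-44394789, plus strand: ggcggagggacGTTGCTAtggcaaccgca
Dynlrb2, chr8:116504959-116504987, plus strand: gcctggttgccTAGCAACgggggaagcgt
Hydin, chr8:110266879-110266907, plus strand: attacctggcgGTTGCTAgggacgcccgc
Ecrg4, chr1:43730531-43730559, plus strand: caagggcctggGTTGCTAggggagggttg
Otx2, chr14:48667535-48667563, minus strand: tgcgtcaaaaaGTTGCCAgagaggcgctt
Dnah9, the called ciliated gene, held no match in this window. The core TGTTTAC of FOX factors was in 2 of the 13 ciliated promoters (Ak7 and Cfap43) and 1 of the 11 choroid plexus promoters (Prlr), against 4.05% of all genes. TAATCC, the core bound by OTX2, was in 1 of the 11 choroid plexus promoters (Otx2 itself), 0 of the 13 ciliated ones and 8.14% of all genes. A match is a description of these letters only.

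The wider list of motile cilia genes had a median log2 change of 0.06, with 47 positive and 38 negative among 85 tested. Of these, 1 rose in edgeR's test and 0 fell, beside 3.30% and 3.22% of all tested genes. At an unadjusted p under 0.05 there were 5 higher and 3 lower, beside 12.1% and 12.5% of all tested genes. The called gene was Rsph9, of the radial spoke head like Rsph1, at 5.96 ± 1.18 CPM with normal diet and 8.96 ± 1.71 CPM with ketogenic diet, which in log2 was 0.59 ± 0.16 (SE) higher, with an edgeR adjusted p of 0.0436. The call ended when control replicate 1, 2 or 3, or ketogenic replicate 1 or 2, was left out (adjusted p of 0.0838 to 0.148), as did limma-voom (0.0520) and removal of the trend on GC and length (0.0766).

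**Figure D4:**
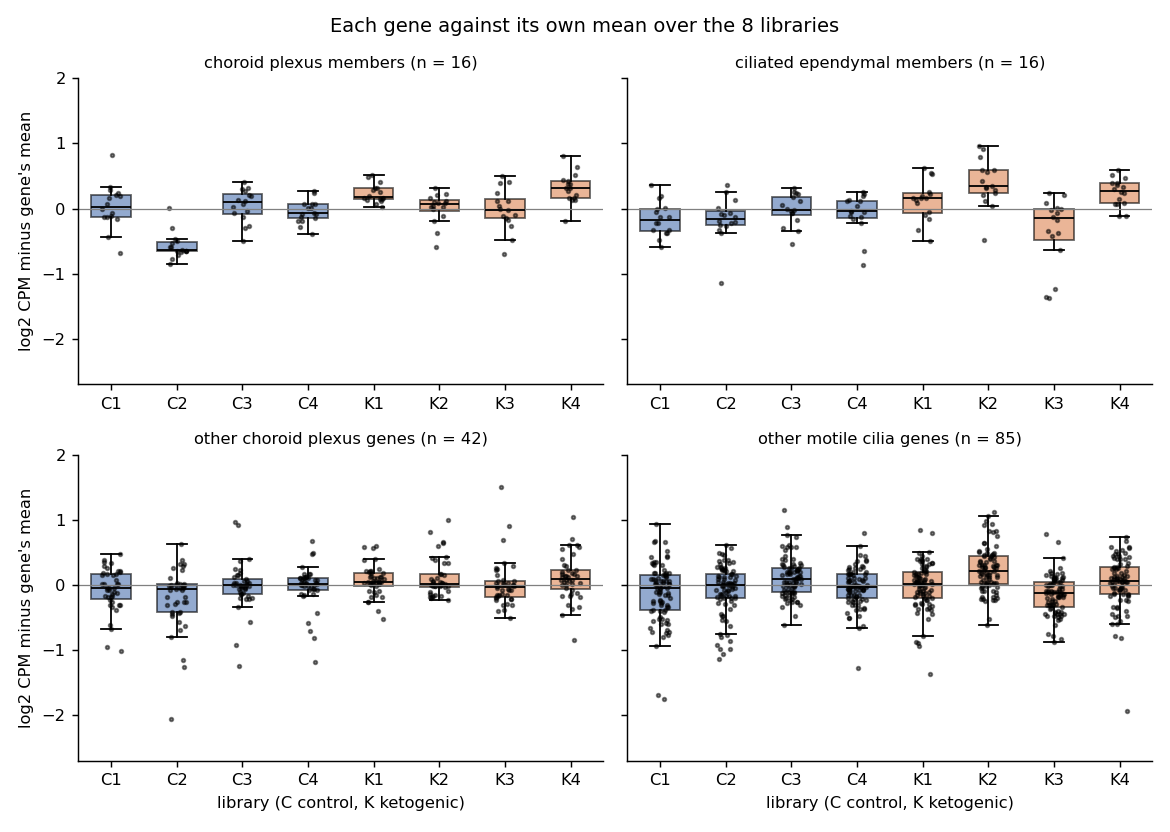
Log2 CPM of each gene minus its mean over the 8 libraries, as points and boxes (median, quartiles, whiskers to 1.5 times the interquartile range), for the 16 choroid plexus and 16 ciliated genes (top) and the 42 and 85 other genes of the wider lists (bottom). The choroid plexus box of control replicate 2 (C2) lies lowest, and the ciliated boxes of ketogenic replicates 2 and 3 (K2, K3) lie highest and among the lowest.

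Markers of other cells that a whole brain holds were counted in the same fit, where 3.30% of all tested genes rose and 3.22% fell. At an unadjusted p under 0.05 the shares of all tested genes were 12.1% higher and 12.5% lower. Of 5 erythroid genes 4 rose and 0 fell in edgeR's test, and their summed level was 15.3 to 52.4 CPM in controls and 69.4 to 114 CPM with ketogenic diet. Hbb-bs, a beta globin gene, went from 24.9 ± 11.3 to 66.4 ± 12.6 CPM (adjusted p = 0.00665). Of 14 meningeal fibroblast genes 0 rose and 1 fell, Igfbp5, and the median log2 change of the list was -0.13. Their summed level was 486 to 640 CPM in controls and 403 to 487 CPM with ketogenic diet, with means of 555 and 443 CPM. Most of this sum was Igfbp5 alone, at 363 ± 52.3 CPM in controls and 272 ± 29.8 CPM with ketogenic diet. At an unadjusted p under 0.05 there were 4 meningeal genes lower and 0 higher. Of 10 astrocyte genes 4 fell, Aqp4 with the smallest p at -0.54 ± 0.07, and 1 rose, with a summed level of 4855 to 5683 CPM in controls and 4758 to 5368 CPM with ketogenic diet.

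Of 13 endothelial genes 1 rose (Esam) and 1 fell, with sums of 274 to 332 CPM in controls and 283 to 312 CPM with ketogenic diet. Of 9 tested tanycyte genes, which mark the specialised ependymal cells of the third ventricle's floor, 1 rose (Crym) and 1 fell, with sums of 546 to 593 and 518 to 593 CPM. Of 10 microglia genes 1 rose (Tmem119) and 0 fell, with sums of 387 to 431 and 394 to 489 CPM. Of 10 oligodendrocyte genes 0 rose and 2 fell, Ermn with the smaller p, and 7 of 10 changes were negative, with sums of 5369 to 5678 and 4955 to 6560 CPM. None of 11 neuron genes passed, with 1 higher and 1 lower at an unadjusted p under 0.05 and sums of 10853 to 11822 and 10231 to 11911 CPM. Of 10 pineal and pituitary genes, 3 had enough counts to test and none passed, with 1 higher at an unadjusted p under 0.05. Sums over all 10 were 1.43 to 2.82 CPM in controls and 1.63 to 15.6 CPM with ketogenic diet. The 3 tested genes summed to 8.23 CPM in ketogenic replicate 4 and to 1.52 to 4.26 CPM in the other ketogenic libraries. The part of these cells in the levels of the choroid plexus and ependymal genes was not tested.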

How the data were processed

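The authors deposited read counts and FPKM by gene symbol for 8 libraries, made from 1.3 ug of total RNA each, per the labels' protocols. The submitters' processing notes name GRCm38 and mm10. The aligner, the counter, its annotation and whether it used strand: not given in the sources used here. Values of FPKM as deposited equal the count over the column total and 1 length per gene (relative spread up to 1.79e-07 for genes with at least 10 counts).

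Counts were analysed with edgeR 4.0.16 (filter on low counts, TMM, quasi-likelihood F test, intercept and diet, no block, Benjamini-Hochberg adjustment over 14895 genes; 3088 were left out). Log2 CPM used a prior count of 2, and the SE of a log2 change is its size over the square root of F. Alternatives were DESeq2 1.42.0 size factors and Wald test, library size alone, upper quartile factors, no filter, a mean CPM of at least 1, limma 3.58.1 with voom or on log2(FPKM + 1) and log2(FPKM + 0.1), a replicate block, a loess trend (span 0.3) on GC content and length (GC known for 99.3% of tested genes), and each library left out. The fit was tested on simulated data. All 32 genes are named. From each wider list the rule took up to 3 called genes per direction with the smallest p, else the 2 smallest p, and from each list of another cell type the called gene with the smallest p. The genes and lists were chosen with earlier results of these data known. Positions are GENCODE M21 gene bounds (GRCm38), and promoter sequences are from RefSeq. By these bounds 8 of 16 choroid plexus and 9 of 16 ciliated genes overlap another annotated gene, not all of them named above. Some matched promoter sequence is not reported here.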

Additional observations from a re-analysis of the deposited data

Results flagged for a closer look

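In groups of 4 libraries, a value is listed here when its gap to the nearest other library takes up more of the group's range than Dixon's 95% limit allows. Of 68 groups examined 6 met this, where chance gives about 1 in 20. The mean log2 CPM of the choroid plexus genes was 3.23 in control replicate 2 and 3.75 to 3.85 in the other controls. Ecrg4 was at 4.17 CPM in control replicate 2 and 5.76 to 5.99 CPM in the other controls. Rarres2 was at 8.04 CPM in control replicate 3 and 5.09 to 5.50 CPM in the other controls. Among ketogenic libraries, Prlr was at 10.5 CPM in replicate 3 (16.2 to 17.2 CPM in the others), Cldn2 at 1.88 CPM in replicate 2 (4.08 to 4.49 CPM) and Tmem72 at 5.13 CPM in replicate 4 (6.24 to 6.39 CPM).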

How the results depend on the processing

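The number of choroid plexus genes called, 1 in the main analysis, was 2 without the count filter, 3 with the DESeq2 Wald test, 3 with the replicate block, and 0 after the trend on GC and length was removed, with limma on log2(FPKM + 1) or log2(FPKM + 0.1), and with control replicate 2 and ketogenic replicate 3 both left out (added after seeing the data). The number of ciliated genes called, also 1, was 0 without the count filter, with limma-voom, with either limma fit on FPKM, with the trend removed and with both libraries left out. Leaving out 1 library gave 0 to 1 for each list. Over all genes, 971 were called, and 1767 with the DESeq2 Wald test, 1528 with the replicate block, 288 with the trend removed, 64 and 88 with limma on log2(FPKM + 1) and log2(FPKM + 0.1), 114 with both libraries left out, and 146 to 1900 with 1 library left out. Higher and lower calls were 491 and 480 in the main analysis, and less equal in some settings. They were 51 and 37 with limma on log2(FPKM + 0.1), 320 and 268 without ketogenic replicate 1, and 331 and 383 without ketogenic replicate 3. The causes of these differences were not tested.

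Signs turned only for genes that were not called. Kl, at -0.0021, was at 0.0059 with library size alone, 5.82e-05 with upper quartile factors, 0.00014 without the filter, 0.017 with limma-voom, 0.016 and 0.020 with limma on log2(FPKM + 1) and log2(FPKM + 0.1), 0.014 with the replicate block and 0.0092 with the trend removed. Cfap44 was at -0.12 with limma-voom, -0.0013 and -0.074 with limma on FPKM, and -0.085 with the replicate block. Dynlrb2 was at -0.029 with the trend removed. With both libraries left out F5 was at -0.069 and Dnah12 at 0.24. With 1 library left out the ranges were -0.14 to 0.11 for Kl, -0.26 to 0.018 for Otx2, -0.13 to 0.15 for Prlr, -0.13 to 0.21 for F5, -0.054 to 0.17 for Tmem72, -0.15 to 0.16 for Cfap126, -0.40 to 0.15 for Dnah12, -0.011 to 0.65 for Spag17 and -0.18 to 0.30 for Cfap44. The medians of both lists stayed positive under each alternative, at 0.22 to 0.43 and 0.15 to 0.35 with 1 library left out.

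Libraries of the same number were not paired by the labels. With the replicate block Ttr was called at 0.49 (adjusted p = 0.00499) and Clic6 at 0.37 (0.0454). Over all tested genes, the deviations from the group means of control and ketogenic libraries of the same number correlated at 0.022, 0.054, 0.076 and 0.044. Of 4 control libraries, 2 correlated best with the ketogenic library of their own number. With few counts, Mia and Spag17 were the least precise.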
